A study of Mus musculus with 24 samples.

Results

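The integrated stress response genes described here are Atf4, the 3 transcription factor genes Atf3, Atf5 and Ddit3, and the 6 genes Ddit4, Trib3, Asns, Chac1, Sesn2 and Vldlr. They were taken by gene symbol from the count tables, which list 23420 genes, and all 10 were found. All 10 were also among the 12584 genes with enough counts to be tested. Asns, Atf3, Chac1 and Vldlr had few or no counts in naive cells and were kept through the other groups. RNA was sequenced from sorted CD4 T cells of OT-II mice, whose transgenes encode a T cell receptor that recognises an ovalbumin peptide. The mice, of C57BL/6 background, were also heterozygous for Nur77GFP, a green fluorescent reporter under control of Nr4a1 sequences, so every group shares both modifications. There were 4 groups of 6 libraries, and the titles in every group carry the same codes M1 to M6, given here as library numbers. Reactivated TH1 cells had met antigen-loaded macrophages for 6 hours after 5 days of TH1 culture. TH1 effector cells had 5 days of TH1 culture alone. Activated naive cells had 6 hours of stimulation, by means that the labels leave unnamed. Naive cells came from spleens. No group met macrophages without antigen, so an effect of antigen and an effect of macrophages cannot be told apart, and the labels used here give no age for the mice.

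In the integrated stress response, kinases that sense amino acid shortage, unfolded protein in the endoplasmic reticulum, double-stranded RNA or lack of heme phosphorylate the translation initiation factor eIF2. Translation then falls in general, while the mRNA of ATF4 is translated better, and ATF4 switches on genes for amino acid uptake and synthesis. ATF4 also switches on Ddit3, which encodes CHOP, and Atf3, and the pathway feeds back through phosphatases of eIF2 and through TRIB3. Because much of this control acts on translation, ATF4 mRNA is not a measure of ATF4 protein. In T cells the kinase GCN2 is known to sense amino acid loss, and activation brings a large demand for amino acids.

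ATF4 binds DNA together with C/EBP-family partners at a composite site, and the letters TGATGNAA, searched on both strands, were taken as its core. RefSeq promoter windows of build GRCm38.p6, 250 bases before to 50 after each start, were available for all 10 genes. The core was found in 5 of the 10 genes, against 4.51% of all 27025 genes with a window, counting a gene when any of its windows held it. The stretches that hold it are shown because they are the letters that set these 5 genes apart from the other 5, in capitals at the match. The other 5 genes, Atf4, Atf5, Ddit3, Ddit4 and Sesn2, had no such letters in their windows, and letters outside the windows were not searched. The 10 genes were chosen as genes of this response, so their share beside that of all genes is not a test.
Atf3, minus strand, chr1:191183380-191183499, match starting 110 bases before the start: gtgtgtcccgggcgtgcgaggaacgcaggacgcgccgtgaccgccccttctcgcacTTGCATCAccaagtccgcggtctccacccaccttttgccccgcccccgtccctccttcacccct
Chac1, plus strand, chr2:119350993-119351112, match starting 193 bases before the start: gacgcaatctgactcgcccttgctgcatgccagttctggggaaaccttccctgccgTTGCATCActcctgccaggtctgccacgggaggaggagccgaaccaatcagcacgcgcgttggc
Trib3, minus strand, chr2:152344031-152344102, match starting 15 bases after the start: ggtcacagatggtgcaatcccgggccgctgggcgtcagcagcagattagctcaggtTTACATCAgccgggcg
Asns, minus strand, chr6:7693180-7693288, match starting 23 bases before the start: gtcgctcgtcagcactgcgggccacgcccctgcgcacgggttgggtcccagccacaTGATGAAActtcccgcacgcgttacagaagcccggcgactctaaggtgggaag
Vldlr, plus strand, chr19:27216770-27216883, match starting 200 bases before its second listed start: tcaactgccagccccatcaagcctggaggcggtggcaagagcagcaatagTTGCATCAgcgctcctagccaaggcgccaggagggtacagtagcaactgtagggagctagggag

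Other motifs searched on both strands did not group the genes in this way. The cyclic AMP response element TGACGTCA was in none of the 10 genes and in 2.03% of all genes. The AP-1 site TGANTCA was in 1 of the 10, Ddit3, and in 8.97% of all genes. The consensus of the endoplasmic reticulum stress element was in none of the 10 and in 0.137% of all genes. A match describes letters in a window and is not evidence that a factor binds there.

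Counts given to genes ranged from 18457653 to 34262645 per library, in 2 sequencing runs that each held 3 libraries of every group. The labels do not say that libraries of a group came from separate mice or cultures, and p-values here cover only the spread between libraries, which may be technical. As checks of the labels, Ifng, the interferon gamma gene, averaged 12947 CPM (counts scaled to a common library total) in reactivated TH1, 198 in TH1 effector, 0.481 in activated naive and 0.112 in naive libraries. Nr4a1, the immediate-early gene of the reporter, averaged 790 CPM in reactivated TH1, 298 in TH1 effector, 9044 in activated naive and 434 in naive libraries. All 8 T cell markers counted exceeded 1 CPM in every group. In these bulk libraries, fewer cells of a type and less RNA per cell cannot be told apart.

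Atf4 was the most abundant of the 10 mRNAs per exon length in 3 of the 4 groups. In RPKM, the CPM divided by exon length in kilobases, it averaged 222 in reactivated TH1, 161.1 in TH1 effector, 297 in activated naive and 112 in naive libraries, where Ddit4 with 113 RPKM was at about the same level. The gene ranked next was not the same across the groups. It was Asns in reactivated TH1 libraries (52.4 RPKM), Ddit4 in TH1 effector libraries (64.7 RPKM) and Ddit3 in activated naive libraries (62.2 RPKM). Vldlr was the lowest in reactivated TH1 (0.313 RPKM), TH1 effector (4.63 RPKM) and activated naive libraries (no count), and in naive libraries it was at 0 together with Atf3 and Chac1.

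**Figure D1:**
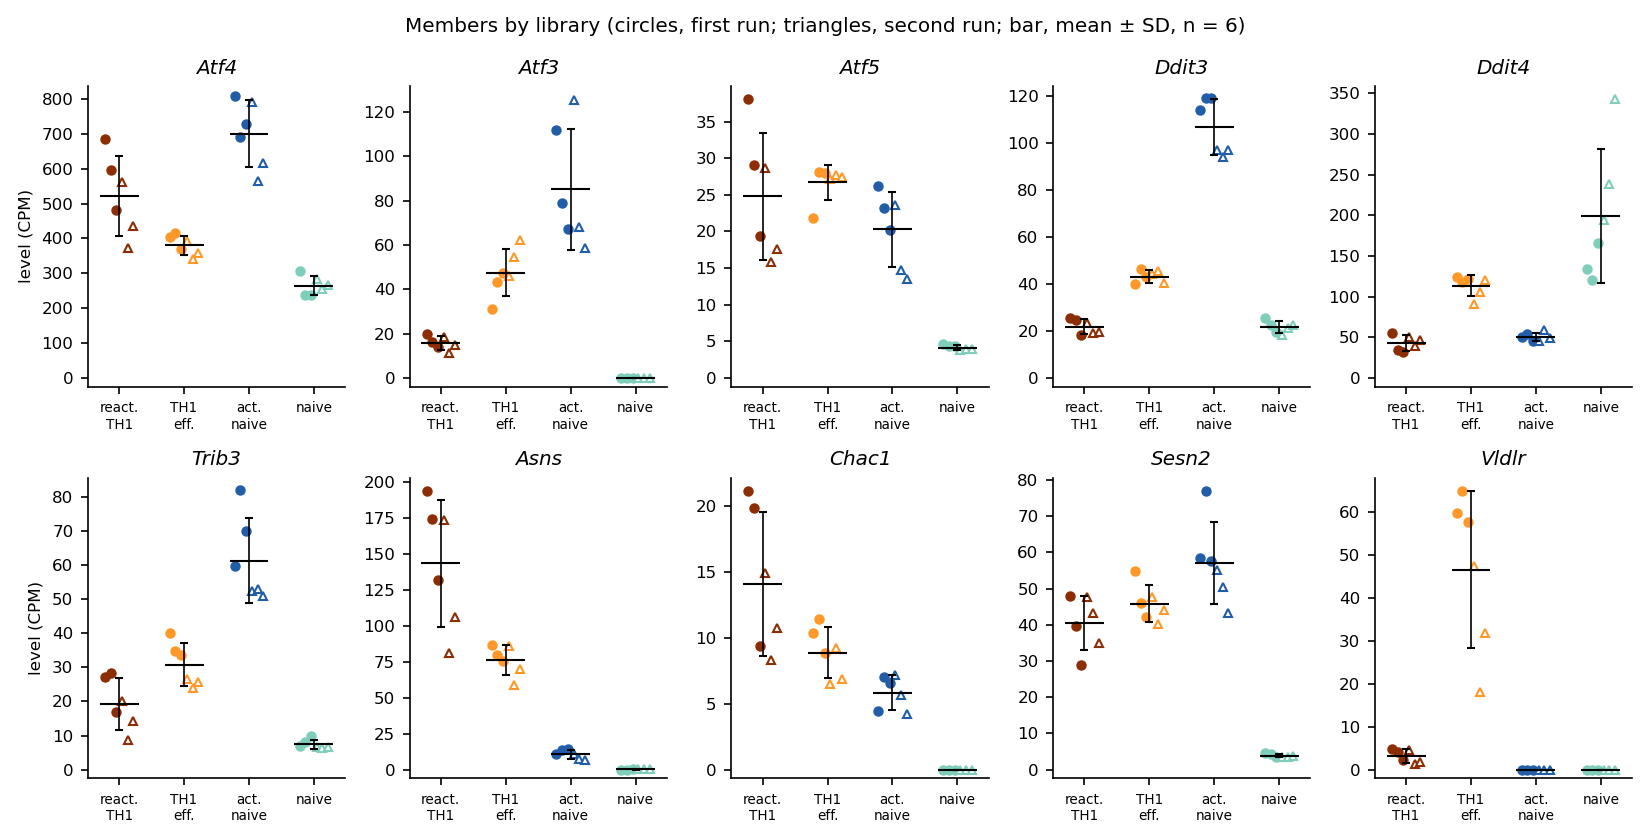
Level of each of the 10 genes in CPM in the 24 libraries (points: circles for the first run, triangles for the second; bars: mean ± SD, n = 6) with the groups along the horizontal axis. Asns and Chac1 are highest in reactivated TH1 libraries, Atf4, Atf3, Ddit3, Trib3 and Sesn2 in activated naive libraries, Vldlr in TH1 effector libraries and Ddit4 in naive libraries.

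Stimulation of naive cells for 6 hours brought higher levels of 8 of the 10 genes and a lower level of Ddit4. Of all tested genes, 41.3% were higher and 40.5% lower at an adjusted p under 0.05, so a call alone was common. The median fitted log2 fold change was 3.04 over the 9 genes with counts in either group and 0.005 over all genes. It takes in Atf3 and Chac1 at values fitted against 0 naive counts. These 2 genes were kept through the other groups and could only rise. Asns, with 16 counts in all in naive libraries, was also kept through the other groups and had almost no room to fall. All 8 rises and the fall were without overlap between activated naive and naive libraries, where 33.3% of all genes were higher and 33% lower without overlap. Beside these changes, the summed markers of CD8, NK and innate lymphocytes were 4.97 to 11.2 CPM in activated naive libraries and 23.7 to 31.1 CPM in naive libraries, with 2 of the 7, Ncr1 and Klra8, at 0 in both. The 8 B cell markers summed to 0.369 to 0.676 CPM in activated naive libraries and 1.10 to 4.09 CPM in naive libraries, none of them at 0. The 7 dendritic cell markers summed to 0.833 to 1.91 CPM in activated naive libraries and 0.235 to 0.516 CPM in naive libraries, with 3 at 0 in each. Most of the higher sum was Zbtb46, with averages of 0.957 CPM in activated naive and 0.0927 CPM in naive libraries. Flt3 was lower in activated naive libraries, at 0.0248 CPM against 0.255 CPM. The part of these cells in the results was not tested.

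Atf4 (chr15:80255184-80257541 in mm10, plus strand), the central factor of the response, had 565 to 808 CPM in activated naive libraries, with a median of 709. In naive libraries it had 236.7 to 308 CPM, with a median of 261. All activated naive libraries therefore lay above all naive ones. The rise was 2.63-fold (log2 fold change 1.40, SE 0.10, adjusted p = 6.53e-12).

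Of the factors downstream of ATF4, Ddit3, which encodes the pro-apoptotic factor CHOP (chr10:127290774-127296288, plus strand), had 93.9 to 119 CPM in activated naive libraries (median 105). In naive libraries it had 18.3 to 25.7 CPM (median 21.9). The rise was 4.92-fold (log2 fold change 2.30, SE 0.07, adjusted p = 9.92e-19), among libraries that were close together within each group. Atf3, a stress-induced factor of the same bZIP class (chr1:191170296-191218039, minus strand), had 58.9 to 126 CPM in activated naive libraries (median 73.6) and no count in any naive library. With a floor of 3 counts over the naive group, 0.0205 CPM, it was at least 4147-fold higher (adjusted p = 3.53e-14). Atf3 is also an immediate-early gene of many cell types. Atf5, a bZIP factor linked to mitochondrial stress (chr7:44812256-44816658, minus strand), had 13.6 to 26.2 CPM in activated naive libraries (median 21.7) and 3.78 to 4.61 CPM in naive libraries (median 4.16). This was a rise of 4.85-fold (adjusted p = 1.6e-11, log2 fold change 2.28, SE 0.14).

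The regulators of signalling did not move in 1 direction. Trib3, a pseudokinase that restrains ATF4 and CHOP and is one of their targets (chr2:152337422-152344032, minus strand), had 50.9 to 82.0 CPM in activated naive libraries (median 56.4). In naive libraries it had 6.39 to 9.93 CPM (median 6.78), an 8.21-fold rise (log2 fold change 3.04, SE 0.10, adjusted p = 5.19e-15). Sesn2, a sestrin that restrains mTORC1 when leucine is low (chr4:132492032-132510501, minus strand), rose 14.8-fold. It had 43.3 to 77.0 CPM in activated naive libraries (median 56.4) and 3.36 to 4.50 CPM in naive libraries (median 3.70; log2 fold change 3.89, SE 0.10, adjusted p = 4.64e-19). Ddit4, also called REDD1, an inhibitor of mTORC1 induced by several stresses (chr10:59949669-59951834, minus strand), went the other way. It had 45.1 to 59.1 CPM in activated naive libraries (median 49.9) and 120.2 to 343 CPM in naive libraries (median 179.7). The fall was 3.85-fold (log2 fold change -1.95, SE 0.15, adjusted p = 3.39e-09). Naive libraries were spread widely for Ddit4, where the mean was 139.8 CPM in the first run, against 259 CPM in the second run.

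The enzyme genes started from very low levels in naive cells. Asns encodes asparagine synthetase, which makes asparagine from aspartate and glutamine (chr6:7675169-7693254, minus strand). It had 6.86 to 14.4 CPM in activated naive libraries (median 10.9) and 16 counts in all in the 6 naive libraries (0 to 0.214 CPM, median 0.142). The ratio of the fitted levels was 94.2 (log2 fold change 6.56, SE 0.65, adjusted p = 1.57e-13). Chac1, whose product breaks down glutathione (chr2:119351229-119354381, plus strand), had 4.21 to 7.20 CPM in activated naive libraries (median 6.09). It had no count in naive libraries, so the difference was at least 284.6-fold (adjusted p = 7.81e-13). Vldlr, a lipoprotein receptor of the low-density lipoprotein receptor family (chr19:27216484-27254231, plus strand), had no count in either group.

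After 5 days of TH1 culture, without restimulation, 9 of the 10 genes were higher than in naive cells and Ddit4 was lower. Of all tested genes, 44.6% were higher and 40.3% lower. The median fitted log2 fold change of the 10 genes was 3.13, against 0.057 over all genes. It takes in Atf3, Chac1 and Vldlr at values fitted against 0 naive counts, and these 3 genes could only rise. Asns, near 0 in naive libraries, had almost no room to fall. The 9 rises were without overlap between the groups, where 36.8% of all genes were higher without overlap. Both comparisons use the same naive libraries, so their values below are set side by side only. The 15 macrophage markers summed to 3.49 to 5.29 CPM in TH1 effector libraries and 7.59 to 11.4 CPM in naive libraries, with 8 and 6 of them at 0. The 8 B cell markers summed to 5.89 to 31.3 CPM in TH1 effector libraries and 1.10 to 4.09 CPM in naive libraries, and the 7 dendritic cell markers to 1.51 to 3.60 CPM in TH1 effector libraries and 0.235 to 0.516 CPM in naive libraries. Markers of CD8, NK and innate lymphocytes summed to 31.4 to 42.0 CPM in TH1 effector libraries and 23.7 to 31.1 CPM in naive libraries. Of the 4 tested, 1 was higher and 2 were lower in TH1 effector libraries. Klrk1 averaged 29.1 CPM in TH1 effector and 0.00800 CPM in naive libraries. The CD8 genes were lower, with Cd8b1 at 4.67 CPM in TH1 effector and 26.3 CPM in naive libraries, and Cd8a at 0.369 and 0.839 CPM. The part of these cells in the results was not tested.

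Asns and Vldlr were the genes furthest above their activated naive level in TH1 effector cells. Asns had 58.7 to 86.4 CPM in TH1 effector libraries (median 77.6), and its ratio to naive libraries was 682 (log2 fold change 9.41, SE 0.64, adjusted p = 3.73e-17). Set against activated naive libraries it was 7.25-fold higher in TH1 effector libraries (log2 fold change 2.86, SE 0.15, adjusted p = 3.15e-12). Vldlr had 18.2 to 64.9 CPM in TH1 effector libraries (median 52.6) and no count in activated naive or naive libraries. It was at least 2273-fold higher than in naive libraries (adjusted p = 3.61e-09) and at least 2404-fold higher than in activated naive libraries (adjusted p = 2.82e-09). The TH1 effector libraries differed by run, with Vldlr means of 60.8 CPM in run 1 and 32.5 CPM in run 2.

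Atf4 had 340 to 416 CPM in TH1 effector libraries (median 380), a 1.43-fold rise over naive libraries (log2 fold change 0.52, SE 0.08, adjusted p = 7.78e-05). Ddit3 had 39.97 to 46.2 CPM (median 43.5) and rose 1.996-fold. Trib3 had 23.9 to 40.2 CPM (median 30.1) and rose 4.11-fold over naive libraries. These 3 genes were lower in TH1 effector than in activated naive libraries, with log2 fold changes of -0.88 for Atf4 and -1.30 for Ddit3 and, for Trib3, means of 30.8 CPM in TH1 effector and 61.4 CPM in activated naive libraries. Atf3 had 31.1 to 62.4 CPM in TH1 effector libraries (median 46.9), at least 2316-fold above naive libraries. Chac1 had 6.51 to 11.4 CPM (median 9.03), at least 432-fold above naive libraries. Neither gene had a count in naive cells. Sesn2 had 40.2 to 54.7 CPM in TH1 effector libraries (median 45.1; log2 fold change 3.58, SE 0.09, adjusted p = 3.81e-18). Atf5 had 21.8 to 28.1 CPM (median 27.6; log2 fold change 2.69, SE 0.06, adjusted p = 7.46e-13). Both had ranges that met those of activated naive libraries.

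Ddit4 had 91.2 to 124 CPM in TH1 effector libraries (median 119) against 120.2 to 343 CPM in naive libraries, so the ranges met. The fall was 1.70-fold (log2 fold change -0.77, SE 0.15, adjusted p = 6.35e-04). It rested on the second run: there the log2 fold change was -1.29, and in the first run alone it was -0.18 with an adjusted p of 0.39.

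Restimulation of TH1 cells with antigen-loaded macrophages split the genes. Atf4, Asns and Chac1 rose, Atf3, Ddit3, Ddit4, Trib3 and Vldlr fell, and Atf5 and Sesn2 did not pass the test. Of all tested genes, 39.9% were higher and 39.8% lower, so 3 and 5 of 10 calls were not far from the background. The median log2 fold change was -0.44 over the 10 genes and -0.002 over all genes.

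The 3 rises were small and their ranges met. Atf4 had 372 to 686 CPM in reactivated TH1 libraries (median 522), against 340 to 416 CPM in TH1 effector libraries (median 380). The difference was 1.37-fold (log2 fold change 0.45, SE 0.12, adjusted p = 3.78e-04). Asns had 80.8 to 193 CPM in reactivated TH1 libraries (median 153), against 58.7 to 86.4 CPM in TH1 effector libraries. Only 1 reactivated library lay within the TH1 effector range of Asns. The rise was 1.86-fold (log2 fold change 0.90, SE 0.20, adjusted p = 8.05e-05). Chac1 had 8.32 to 21.1 CPM in reactivated TH1 libraries (median 12.8), against 6.51 to 11.4 CPM in TH1 effector libraries (log2 fold change 0.66, SE 0.24, adjusted p = 0.00524).

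Of the 5 falls, 4 were without overlap between the groups, where 29.4% of all genes were lower without overlap. Vldlr fell furthest of the 10. It had 1.29 to 4.86 CPM in reactivated TH1 libraries (median 3.14), against 18.2 to 64.9 CPM in TH1 effector libraries, a 14.4-fold fall (log2 fold change -3.85, SE 0.38, adjusted p = 3.24e-07). Atf3 had 11.4 to 19.8 CPM in reactivated TH1 libraries (median 15.6), against 31.1 to 62.4 CPM in TH1 effector libraries. This was a 2.98-fold fall of a gene that was at least 4147-fold higher after naive cells were stimulated (log2 fold change -1.58, SE 0.17, adjusted p = 2e-06). Ddit4 had 31.96 to 55.7 CPM in reactivated TH1 libraries (median 42.5), against 91.2 to 124 CPM in TH1 effector libraries, a 2.67-fold fall (log2 fold change -1.41, SE 0.15, adjusted p = 5.35e-07). Ddit3 had 18.3 to 25.6 CPM in reactivated TH1 libraries (median 21.5), against 39.97 to 46.2 CPM in TH1 effector libraries, a 1.98-fold fall (log2 fold change -0.99, SE 0.10, adjusted p = 4.64e-11). CHOP mRNA in reactivated TH1 cells did not differ from naive cells beyond the spread: reactivated TH1 libraries averaged 21.8 ± 3.15 CPM and naive libraries 21.6 ± 2.57 CPM (SD, n = 6 each; log2 difference 0.01, SE 0.11, adjusted p = 0.91).

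Trib3 had 8.62 to 28.3 CPM in reactivated TH1 libraries (median 18.5), against 23.9 to 40.2 CPM in TH1 effector libraries, with ranges that met (log2 fold change -0.70, SE 0.22, adjusted p = 1.45e-04). Atf5 averaged 24.8 ± 8.63 CPM in reactivated TH1 libraries and 26.7 ± 2.42 CPM in TH1 effector libraries (SD, n = 6 each; log2 fold change -0.13, SE 0.20, adjusted p = 0.478). Sesn2 averaged 40.4 ± 7.50 CPM in reactivated TH1 libraries and 45.9 ± 5.12 CPM in TH1 effector libraries (log2 fold change -0.18, SE 0.14, adjusted p = 0.164), and with library totals alone as the scaling its adjusted p was 0.0166.

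Macrophage RNA moved with this comparison. The 15 macrophage markers together had 12.4 to 19.0 CPM in reactivated TH1 libraries and 3.49 to 5.29 CPM in TH1 effector libraries, with 1 marker, Marco, at 0 in reactivated TH1 libraries and 8 at 0 in TH1 effector libraries. The macrophage gene Lyz2 averaged 5.98 CPM in reactivated TH1 libraries and 0.0697 CPM in TH1 effector libraries, and C1qb averaged 1.503 CPM in reactivated TH1 libraries and had no count in TH1 effector libraries. Dendritic cell markers summed to 7.19 to 10.7 CPM in reactivated TH1 libraries and 1.51 to 3.60 CPM in TH1 effector libraries. Most of this was Zbtb46, with averages of 7.71 CPM in reactivated TH1 and 1.52 CPM in TH1 effector libraries. Flt3 was lower in reactivated TH1 libraries, at 0.337 CPM against 0.676 CPM. The B cell markers summed to less in reactivated TH1 libraries, with 1.19 to 2.41 CPM, against 5.89 to 31.3 CPM in TH1 effector libraries. Markers of CD8, NK and innate lymphocytes summed to 67.0 to 109 CPM in reactivated TH1 libraries and 31.4 to 42.0 CPM in TH1 effector libraries, of which Eomes, a factor that CD4 T cells can also express, averaged 54.1 CPM in reactivated TH1 libraries and 1.08 CPM in TH1 effector libraries. The part of these cells in the results was not tested.

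The 4 levels of each gene fell into different orders. Asns and Chac1 were highest in reactivated TH1 cells, then TH1 effector, activated naive and naive cells, and each neighbouring pair passed the test with all libraries. Atf4 was highest in activated naive cells, then reactivated TH1, TH1 effector and naive cells, and each neighbouring pair passed the test. Atf3 and Trib3 were highest in activated naive cells, then TH1 effector, reactivated TH1 and naive cells, and their neighbouring pairs passed the test as well. Ddit3 followed the order of Atf3, but reactivated TH1 and naive cells did not differ beyond their spread. Ddit4 was highest in naive cells, then TH1 effector, activated naive and reactivated TH1 cells, the last pair not passing the test (log2 difference of reactivated TH1 and activated naive -0.24, SE 0.15, adjusted p = 0.249). Sesn2 was highest in activated naive cells, then TH1 effector and reactivated TH1 cells, a pair that did not pass the test, and naive cells. Its difference between TH1 effector and activated naive cells (log2 -0.31, SE 0.11, adjusted p = 0.0155) was lost without libraries 2 of every group (adjusted p = 0.117), in the second run alone (0.138) and with library totals alone as the scaling (log2 -0.17, adjusted p = 0.153). In the second run alone the calls between TH1 effector and activated naive cells were also lost for Atf3 (adjusted p = 0.0676) and Chac1 (0.2), and that of Chac1 also without libraries 5 and 6 of every group (0.0668). Atf5 was highest in TH1 effector cells, then reactivated TH1, activated naive and naive cells. Reactivated TH1 libraries did not pass the test against TH1 effector or activated naive libraries (adjusted p = 0.478 and 0.107), and TH1 effector exceeded activated naive libraries by 0.41 on the log2 scale (SE 0.15, adjusted p = 0.0211). That last call was lost without libraries 5 or without libraries 6 of every group (adjusted p = 0.101 and 0.109) and in the first run alone (0.344).

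Reactivated TH1 and activated naive cells had both been stimulated for 6 hours, with stimuli that cannot be matched from the labels. Set against activated naive cells, 3 of the 10 genes were higher in reactivated TH1 cells, where 43.4% of all genes were, and 5 were lower, where 36.4% were. Asns was 13.5-fold higher in reactivated TH1 libraries (143 ± 44.2 CPM, against 10.6 ± 3.16 CPM in activated naive libraries; SD, n = 6 each; adjusted p = 7.76e-14). Ddit3 was 4.88-fold lower (21.8 ± 3.15 CPM in reactivated TH1, against 107 ± 11.9 CPM in activated naive libraries; adjusted p = 3.01e-18), and Atf3 was 5.37-fold lower (15.8 ± 3.08 CPM in reactivated TH1, against 85.1 ± 27.1 CPM in activated naive libraries; adjusted p = 8.92e-09). An enzyme gene and 2 factor genes of the same response thus stood in opposite orders in these cells. Trib3 was 3.24-fold lower and Chac1 2.36-fold higher in reactivated TH1 libraries (adjusted p = 1.87e-10 and 1.37e-05). Vldlr was at least 162.3-fold higher (adjusted p = 2.42e-06), but it had no count in activated naive libraries. It was kept through the TH1 groups and could only rise. Atf4 and Sesn2 were lower in reactivated TH1 libraries by 0.43 and 0.48 on the log2 scale (SE 0.14 and 0.15), with ranges that met, and the call of Sesn2 was lost in the second run alone (log2 -0.25, adjusted p = 0.0793). In the remaining comparisons, TH1 effector cells had 5 genes higher and 5 lower than activated naive cells. Of all genes, 45.6% were higher and 41.2% lower there. Vldlr is among the 5 higher and could again only rise. Reactivated TH1 cells had 8 higher and 1 lower than naive cells, where 47.9% of all genes were higher and 39.8% lower. Among these 8, Atf3, Chac1 and Vldlr had no naive counts and could only rise. Asns, also among them, had 16 counts in all in naive libraries and almost no room to fall.

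The response to recall, reactivated TH1 against TH1 effector, was tested against the response to naive stimulation, activated naive against naive, as 1 difference between log2 fold changes. Of the 9 genes tested for this, 8 had the lower response in recall and none the higher. The median of the fitted differences was -3.74 on the log2 scale, with Atf3 and Chac1 at values fitted against 0 naive counts. Without naive counts, Atf3 and Chac1 could only rise in naive activation. Of all tested genes, 33.7% had a lower and 34.3% a higher response, and the median over them was -0.004. The difference was -0.94 for Atf4 (SE 0.16, adjusted p = 4.67e-06), whose mRNA rose in both responses. It was -5.66 for Asns (SE 0.68, adjusted p = 2.55e-10), which also rose in both, from a naive level near 0. For Ddit3 it was -3.28 (SE 0.12, adjusted p = 9.22e-18) and for Trib3 -3.74 (SE 0.24, adjusted p = 1.89e-13), and both fell in recall. Sesn2 had a difference of -4.06 (SE 0.18, adjusted p = 4.15e-16) and Atf5 of -2.40 (SE 0.24, adjusted p = 3.79e-09), neither of which passed the test in recall. With Atf3 and Chac1 at 3 counts over the naive group, their differences were at most -13.61 and -7.49 (adjusted p = 2.14e-13 and 2.29e-10). Ddit4, which fell in both responses, was the exception, with a difference of 0.53 (SE 0.22, adjusted p = 0.0799) that was -0.11 in run 1 and 1.11 in run 2. Without libraries 2 of every group it was 0.75 and passed the test (adjusted p = 0.0262). Vldlr has no such value, because naive and activated naive libraries had no count.

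**Figure D2:**
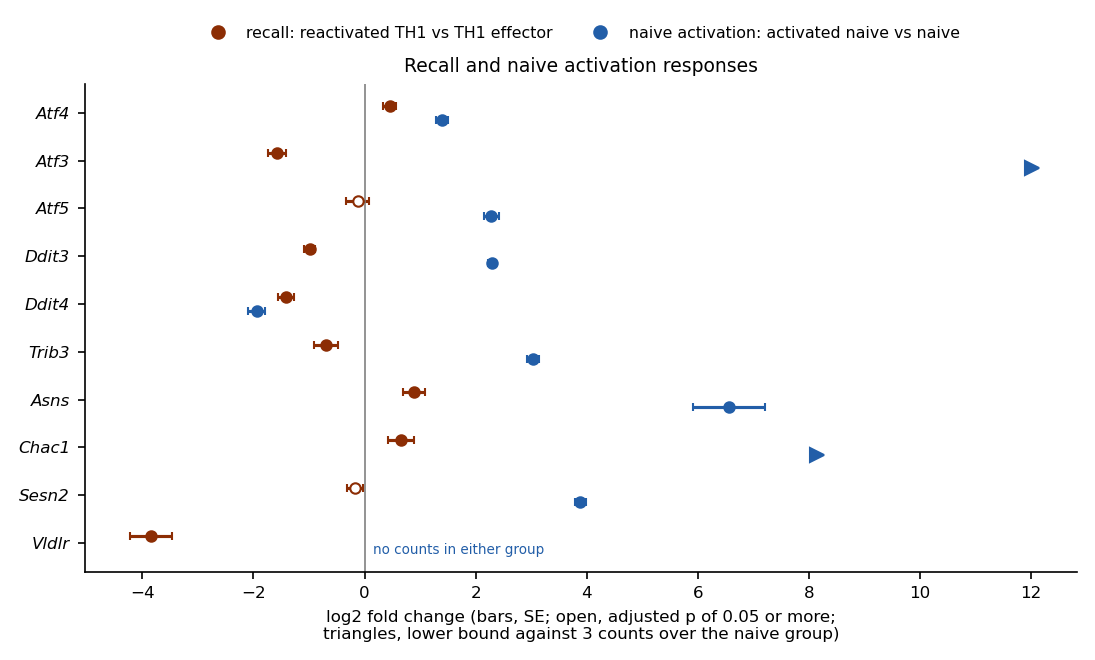
Log2 fold change (horizontal axis, bars: SE) of each gene in recall, reactivated TH1 against TH1 effector, and in naive activation, activated naive against naive; open points did not pass the test and triangles are lower bounds. Ddit3, Trib3 and Atf3 lie left of 0 in recall and right of 0 in naive activation, Ddit4 left of 0 in both, and Atf4, Asns and Chac1 right of 0 in both.

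Among the reactivated TH1 libraries the same few were high or low for most of the genes. Library 1 of that group was the highest for 9 of the 10 genes, and library 5 the lowest for 7, with library 3 the lowest for the other 3. On average over the genes, library 1 lay 0.50 above and library 5 0.52 below the group mean on the log2 scale. Trib3 spanned the widest fold among these genes apart from Vldlr, with 28.3 CPM in library 2 and 8.62 CPM in library 5. In activated naive cells library 6 was the lowest for 6 of the 9 genes with counts. In naive libraries Ddit4 stood apart from the other genes, at 343 CPM in library 6 and 120.2 CPM in library 2. Nr4a1 also ranged widely among reactivated TH1 libraries, from 245 to 1918 CPM. Without libraries 5 and 6 of every group, 8 of the 10 genes passed the test in recall, as with all libraries.

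**Figure D3:**
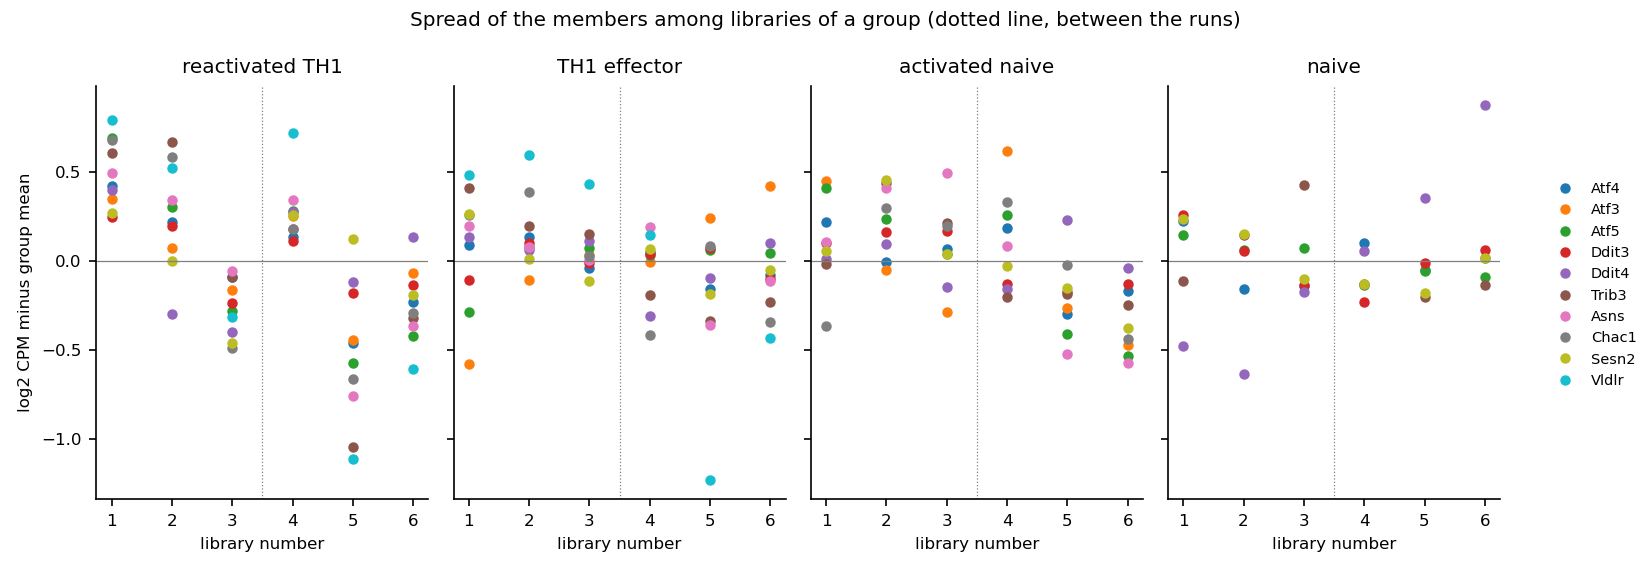
Difference of each gene's log2 CPM in a library from its group mean (vertical axis) by library number (horizontal axis), with a dotted line between the runs. In reactivated TH1 libraries the points lie mostly above 0 in libraries 1, 2 and 4 and mostly below 0 in libraries 3, 5 and 6.

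The kinases that phosphorylate eIF2 and their regulators, 11 genes, were 7 higher and 4 lower in recall, and 4 higher and 6 lower in naive activation. Over all tested genes 39.9% were higher and 39.8% lower in recall, and 41.3% higher and 40.5% lower in naive activation, so splits of this kind lie near the background. All 4 kinase genes are given here, among them 2 named after their values were seen, Eif2ak1 and Eif2ak4. Eif2ak3, which encodes PERK, the sensor of the endoplasmic reticulum, averaged 39.4 CPM in reactivated TH1 libraries, against 134 CPM in TH1 effector libraries, a 3.41-fold fall (adjusted p = 5.72e-14). It averaged 37.8 CPM in activated naive libraries and 69.8 CPM in naive libraries, so it fell in both responses. Eif2ak2, which encodes the double-stranded RNA sensor PKR, averaged 143 CPM in reactivated TH1 libraries and 71.3 CPM in TH1 effector libraries (log2 fold change 0.96, SE 0.18, adjusted p = 0.0035). Its direction was the reverse in naive activation, with 37.5 CPM in activated naive libraries and 69.4 CPM in naive libraries (adjusted p = 0.00244). Eif2ak4, which encodes the amino acid sensor GCN2, fell in recall, where all 11 genes of this list passed the test. Its log2 fold change was -0.29 in recall (SE 0.05) and 0.40 in naive activation (SE 0.08). Eif2ak1, the heme-regulated kinase, had log2 fold changes of 0.27 (SE 0.04) and 0.34 (SE 0.04) in the same order.

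Among 15 genes of eIF2, its exchange factor eIF2B and its phosphatases, 10 were higher and 2 lower in recall, and 10 higher and 2 lower in naive activation. The shares over all tested genes were 39.9% higher and 39.8% lower in recall, and 41.3% and 40.5% in naive activation. The lower genes were not the same: Ppp1ca and Ppp1cc in recall, and Ppp1ca and Ppp1r15a in naive activation. Eif2b3, a subunit of eIF2B, averaged 83.9 CPM in reactivated TH1 libraries and 18.3 CPM in TH1 effector libraries (log2 fold change 2.20, SE 0.04, adjusted p = 3.1e-20), and 67.2 CPM in activated naive libraries and 13.1 CPM in naive libraries (log2 fold change 2.36, SE 0.07). Ppp1r15a, which encodes GADD34, the stress-induced subunit that takes the phosphate off eIF2 and a textbook target of the pathway, did the opposite of Ddit3 in naive activation. It averaged 164.6 CPM in activated naive libraries and 557 CPM in naive libraries, a 3.39-fold fall (adjusted p = 8.66e-14), and it did not pass the test in recall, with 60.0 CPM in reactivated TH1 libraries and 52.7 CPM in TH1 effector libraries (adjusted p = 0.111).

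The genes for amino acid supply rose in both responses. Of 20 enzymes and carriers linked to ATF4, a list without Asns, 19 were higher in naive activation and 16 were higher and 1 lower in recall. Their median log2 fold change was 4.08 in naive activation and 0.97 in recall, against 0.005 and -0.002 over all genes. Over all tested genes 41.3% were higher in naive activation, and 39.9% were higher and 39.8% lower in recall. The response was lower in recall for 17 of the 20 and higher for none, where 33.7% of all genes were lower and 34.3% higher. Naive levels near 0, as for Bcat1 and Slc7a11 below, enlarge the naive response and so lower this difference. Cth, whose product makes cysteine, averaged 71.9 CPM in reactivated TH1 libraries, against 6.31 CPM in TH1 effector libraries, an 11.4-fold rise (adjusted p = 1.46e-15). Bcat1, a branched-chain aminotransferase, averaged 329.6 CPM in reactivated TH1 libraries, against 56.9 CPM in TH1 effector libraries, a 5.80-fold rise (adjusted p = 1.85e-17). It averaged 189 CPM in activated naive libraries, where naive libraries held 1 count between them. The rise of Slc7a11, the cystine carrier, was to 19.1 CPM in activated naive libraries, against 0.0493 CPM in naive libraries. All 12 aminoacyl-tRNA synthetases, which load amino acids onto tRNA, were higher in naive activation and 11 of 12 in recall. Aars, the enzyme for alanine, averaged 598 CPM in activated naive libraries and 86.4 CPM in naive libraries, a 6.90-fold rise. Tars, the enzyme for threonine, averaged 286 CPM in reactivated TH1 libraries and 149.6 CPM in TH1 effector libraries, which is a 1.91-fold rise.

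The direction of these amino acid genes in recall was that of Asns and Chac1 and not that of Ddit3, Trib3 and Atf3. The other targets of ATF4 and CHOP were more mixed, with 7 of 15 higher and 5 lower in recall, and 12 higher and 1 lower in naive activation. Over all tested genes 39.9% were higher and 39.8% lower in recall, and 41.3% and 40.5% in naive activation. Of these targets, Tnfrsf10b, a death receptor gene, averaged 39.9 CPM in reactivated TH1 libraries and 16.3 CPM in TH1 effector libraries (adjusted p = 1.23e-12). Pmaip1, the pro-apoptotic NOXA gene, averaged 52.4 CPM in reactivated TH1 libraries and 98.0 CPM in TH1 effector libraries (adjusted p = 5.53e-10). Of 13 bZIP factors related to ATF4, 4 were higher and 7 lower in recall, and 8 higher and 3 lower in naive activation. Batf3, a factor of the BATF family, averaged 17.1 CPM in reactivated TH1 libraries, against 126 CPM in TH1 effector libraries, a 7.38-fold fall (adjusted p = 1.2e-11).

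The other arms of the unfolded protein response rose beside the falling CHOP mRNA in recall. Of 18 genes of the ATF6 and XBP1 arms, 15 were higher and 1 lower in recall, with a median log2 fold change of 1.09. In naive activation 17 were higher and 1 lower, with a median of 1.90. Over all tested genes 39.9% were higher in recall and 41.3% in naive activation. Hyou1, a chaperone of the endoplasmic reticulum, averaged 724 CPM in reactivated TH1 libraries, against 164.5 CPM in TH1 effector libraries, a 4.38-fold rise (adjusted p = 2.14e-18). Creld2, a factor secreted under stress of that compartment, averaged 119 CPM in reactivated TH1 libraries and 28.9 CPM in TH1 effector libraries (adjusted p = 5.11e-12).

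**Figure D4:**
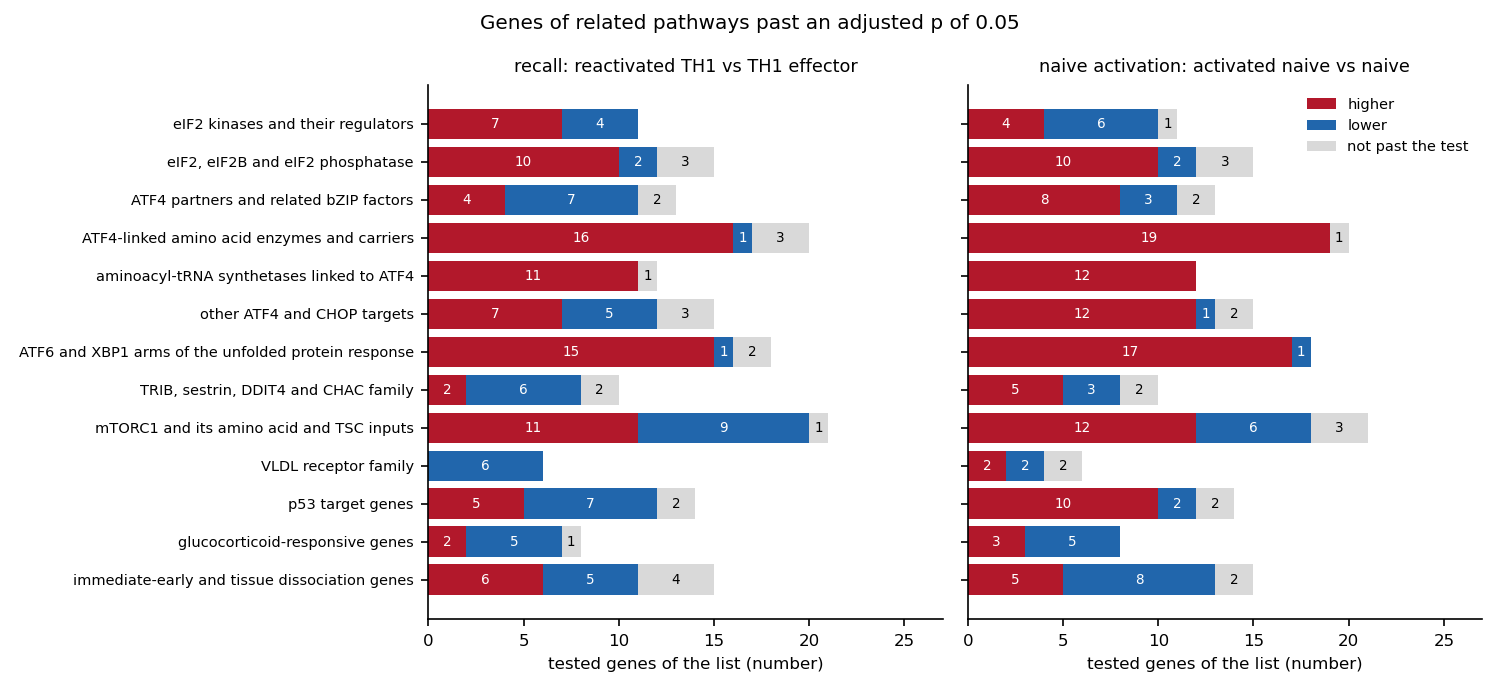
Number of tested genes (horizontal axis) that were higher, lower or not past the test in each of 13 lists of related genes, in recall, reactivated TH1 against TH1 effector, and in naive activation, activated naive against naive. Genes for amino acid supply, tRNA synthetases and the ATF6 and XBP1 arms were mostly higher in both, and the 6 tested genes of the VLDL receptor family were lower in recall.

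The regulators and their relatives did not share 1 direction. The 10 tested TRIB, sestrin, DDIT4 and CHAC genes include Trib3, Sesn2, Ddit4 and Chac1 themselves. Of the 10, 2 were higher and 6 lower in recall, and 5 higher and 3 lower in naive activation. Like the p53 and mTORC1 counts that follow, this split is to be read against the 39.9% higher and 39.8% lower of all genes in recall, and the 41.3% and 40.5% in naive activation. Trib1, a pseudokinase related to Trib3, rose in recall, to 57.0 CPM in reactivated TH1 libraries against 5.14 CPM in TH1 effector libraries (adjusted p = 2.07e-10), and in naive activation, to 148 CPM in activated naive libraries against 8.92 CPM in naive libraries (adjusted p = 8.88e-12). Trib2 fell in recall, with 53.8 CPM in reactivated TH1 libraries and 185 CPM in TH1 effector libraries (adjusted p = 3.62e-10). Sesn1, a sestrin known as a p53 target, fell in naive activation, with 23.0 CPM in activated naive libraries and 152 CPM in naive libraries (adjusted p = 8.75e-14), where Sesn2 rose. Sesn1 also fell in recall, to 14.0 CPM in reactivated TH1 libraries against 30.8 CPM in TH1 effector libraries. Of 14 p53 target genes, which include both sestrins, 5 were higher and 7 lower in recall, and 10 higher and 2 lower in naive activation. Of 21 genes of mTORC1 and its inputs, 11 were higher and 9 lower in recall, and 12 higher and 6 lower in naive activation. Rheb, the activator of mTORC1, averaged 67.8 CPM in reactivated TH1 libraries and 32.5 CPM in TH1 effector libraries (adjusted p = 1.69e-08).

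All 6 tested genes of the VLDL receptor family and its regulators fell in recall, Vldlr among them. Lrp1, a large endocytic receptor, averaged 4.52 CPM in reactivated TH1 libraries, against 105 CPM in TH1 effector libraries, a 23.96-fold fall (adjusted p = 1.17e-15). It averaged 0.394 CPM in naive libraries, so, like Vldlr, it was high in TH1 effector cells and low in naive ones. Ddit4 is also induced by glucocorticoids. Of 8 genes that respond to them, Ddit4 included, 2 were higher and 5 lower in recall, and 3 higher and 5 lower in naive activation. Over all tested genes 39.9% were higher and 39.8% lower in recall, and 41.3% and 40.5% in naive activation. A part of glucocorticoids was not tested. Tsc22d3, which encodes GILZ, averaged 6.02 CPM in reactivated TH1 libraries and 39.0 CPM in TH1 effector libraries, and 25.7 CPM in activated naive libraries and 473 CPM in naive libraries. Ddit4 and Tsc22d3 both fell in both responses. Of 15 immediate-early and tissue dissociation genes, which include Atf3, 5 were higher and 8 lower in naive activation. Fosb averaged 3.67 CPM in activated naive libraries and 197.6 CPM in naive libraries. Fosb thus had many counts in naive libraries, where Atf3 had none. Nr4a1, of the same list, rose as Atf3 did, with 9044 CPM in activated naive libraries and 434 CPM in naive libraries.

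The pattern over the 24 libraries was compared between genes by the root mean square difference of log2 CPM, each gene centred on its mean, among 9609 genes with at least 10 CPM in a group. The libraries share groups and runs, so likeness mainly reflects the 4 group levels. The genes most like Atf4 were Rrp1 (0.177), Tomm6 (0.185) and Pak4 (0.187), where the SD of Atf4 itself was 0.552. Those most like Ddit3 were Insig1 (0.321), Swap70 (0.367) and Pmepa1 (0.371), with an SD of 0.955 for Ddit3. For Ddit4 they were Sft2d2 (0.320), Sash3 (0.330) and D4Wsu53e (0.336). For Trib3 they were Ahi1 (0.404), Mthfd1l (0.413) and Malt1 (0.417). Atf5 was closest to Slc39a6, Chchd10 and Nelfe (0.326 to 0.390), and Sesn2 to Suv39h2, Pla2g12a and Eno2 (0.338 to 0.405). Asns, with an SD of 4.27, was closest to Galnt3 (0.688), Spire1 (0.817) and Tubb6 (0.934). Vldlr was closest to Fam64a (0.688), Il24 (0.727) and Enah (0.836). Among the 10 genes themselves, Ddit3 and Trib3 were the closest pair (0.571), followed by Atf5 and Sesn2 (0.637) and Atf4 and Ddit3 (0.707).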

How the data were processed

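RNA was measured in 24 libraries of 4 groups. Each file holds raw counts per gene as deposited by the authors. Software named in the submitters' processing notes comprises STAR, HTSeq and DESeq2, with genome build mm10. The role and version of each tool, the annotation and the strand option of the counting are not stated in the labels. In GENCODE M21 exons of Atf5 overlap Il4i1 and Nup62 on the other strand by 82 bases, and exons of Ddit3 overlap Mars by 68 and Gm4189 by 13, so these values are uncertain to that extent. A separate GENCODE entry also named Ddit3 lies within it on the same strand. The 5 summary lines of each table were left out of library sizes and tests.

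The tools were edgeR 4.0.16, limma 3.58.1 and statmod 1.5.0 in R 4.3.3. After filterByExpr and TMM scaling, a robust quasi-likelihood model of group plus run was fitted over the 24 libraries. Over 12584 genes, p-values had Benjamini-Hochberg adjustment and a threshold of 0.05. Each SE belongs to the difference in mean log2 CPM (prior count 0.5). Flow cell codes in the file names gave the runs. Lower bounds set a group without counts at 3 counts over its 6 libraries and cover counting error only. RPKM uses merged GENCODE M21 exon lengths. Libraries of a group all differed beyond sampling noise (chi-square per degree of freedom at least 8.9). The fit was tested on simulated counts. Members, lists and tests were chosen with earlier results of these data known. From each other list, the rule named up to 2 genes with the largest rise and up to 2 with the largest fall per comparison, among called genes averaging 10 CPM or more in 1 of the groups compared. The text gives only some of them, and the genes most alike in pattern were the 3 closest. DESeq2 1.42.0 was an alternative.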

Additional observations from a re-analysis of the deposited data

Results flagged for a closer look

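For 8 genes the response in recall, reactivated TH1 against TH1 effector, differed from that in naive activation, activated naive against naive, in the test of the difference between the log2 fold changes. The differences were -0.94 for Atf4, -2.40 for Atf5, -3.28 for Ddit3, -3.74 for Trib3, -5.66 for Asns and -4.06 for Sesn2. For Atf3 and Chac1, which had no counts in naive libraries, the difference was at most -13.61 and -7.49. Of all tested genes, 33.7% had a lower response in recall past the test.

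Atf5 was lower in TH1 effector library 1, at 21.8 CPM, than in the other 5 of that group, of which the nearest had 27.2 CPM. The gap was 0.853 of the range of the group, against a critical value of 0.625. Of 36 sets of 6 values checked, 1 was past this value, and chance gives about 1 in 20.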

How the results depend on the processing

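Under 17 alternatives (library totals, RLE factors, DESeq2, other filters, the contrast's groups alone, each run, the replicate block, and libraries left out), every number of genes called lay within 1.5 times that reported. It was 9 in activated naive against naive, 9 to 10 in TH1 effector against naive, 8 to 9 in recall, 7 to 8 in reactivated TH1 against activated naive, 7 to 10 in TH1 effector against activated naive, 9 in reactivated TH1 against naive, and 8 to 9 for the difference of responses. Of 1147 values of single genes, 1121 kept their direction and side of the threshold, 12 lost and 3 gained a call, and 11 changed sign, none of them called. For Atf5 in recall these were 0.12 in the first run and 0.12 without libraries 5 and 6, and -0.33 to 0.0025 leaving out each number. For Ddit3 in reactivated TH1 against naive they were -0.14 with library totals, -0.0195 with RLE factors, -0.0191 with DESeq2, -0.0393 without a filter and -0.0531 with those groups alone, and -0.11 to 0.0507 leaving out each number. For Ddit4 the difference of responses was -0.11 in the first run. The cause was not tested. With library totals the median of all genes moved to -0.14 in activated naive against naive, -0.12 in recall, 0.20 in TH1 effector against activated naive and -0.005 in reactivated TH1 against naive.

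Libraries of the same number had correlated deviations from their group means in 32 of 36 pairs at over 0.1 (0.046 to 0.374, median 0.18), and 25 matched their own number best. The labels do not say whether a shared code in the titles means a shared mouse or culture. The main model, of group plus run, did not pair libraries by it. With the replicate block the calls numbered 9, 10, 8, 8, 10, 9 and 8 in the comparisons above, as without it. Counts at or near 0 in naive libraries limit the fold of Asns, Atf3, Chac1 and Vldlr.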
